A study of Mus musculus with 6 samples.

Results

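Wnt ligands are the secreted signals of the Wnt pathway, and 10 of the 19 mouse Wnt genes are described here: Wnt2, Wnt2b, Wnt4, Wnt5a, Wnt5b, Wnt6, Wnt9a, Wnt9b, Wnt11 and Wnt16. They were chosen by name, through the 18 microarray probe sets annotated to one of them alone, out of 34945 such probe sets for 18193 genes. All 10 were measured, 4 by 1 probe set, 5 by 2 and Wnt5a by 4. The remaining 9 Wnt genes were measured too and serve as a comparison.

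A Wnt protein carries a lipid added by the acyltransferase PORCN and is brought to the cell surface by the carrier WLS. Outside the cell it binds a Frizzled receptor. With the co-receptors LRP5 or LRP6 this stabilises beta-catenin, which acts with TCF and LEF factors on genes such as Axin2, while with ROR2 or RYK it acts on cell shape, polarity and movement. In the embryonic heart Wnt signals act in the second heart field, the outflow tract and the endocardial cushions, and in bone they promote the formation of osteoblasts.

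The study asked which expression profiles remodelling heart valves share with osteoblast progenitors. Total RNA was hybridised to Affymetrix mouse genome arrays of 45101 probe sets, in 3 groups of 2 arrays each. The E12.5 cushion group was the atrioventricular (AV) cushion of wild-type FVB/N mouse embryos at embryonic day 12.5, a swelling of mesenchyme under endocardium. The E17.5 valve group was the AV valve, mitral and tricuspid, of wild-type FVB/N embryos at embryonic day 17.5. The MC3T3 group was the MC3T3-E1 (subclone4) line, a clonal mouse pre-osteoblast line grown in culture. No group was treated. RNA was pooled before hybridisation, from how many embryos or cultures the labels do not say. Arrays sharing a group are named biological duplicates in the labels, and the p-values below measure the spread between these pools.

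Each deposited value is a ratio of a probe set's signal to the median of its own values on the 4 valve arrays (E12.5 and E17.5 together). On the log2 scale used below, 0 is therefore the middle of the valve arrays, stages that do not overlap lie on opposite sides of 0, and MC3T3 values are relative to the valve. A ratio holds no absolute level: a Wnt gene that is silent in every group also lies near 0, and the abundance of one Wnt cannot be set against that of another. Where a gene had several probe sets their log2 ratios were averaged. Group differences are on the log2 scale and carry limma's standard error, from 1 fit of all 18193 genes over all 6 arrays. To be called, a gene had to differ by 2-fold or more with an adjusted p (limma, Benjamini-Hochberg) under 0.05. No member reached the lowest deposited ratio, 0.01. With 2 arrays per group an exact permutation test cannot give a p below 0.333, so the small number of arrays limits the precision.

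Sequence is shown for 3 members, Wnt2 and Wnt4, the members called between the valve stages, and Wnt6, the only member called higher in MC3T3. It is the 250 bases before the start site that RefSeq lists (build GRCm38.p6), printed 5′ to 3′ on the gene's strand. Wnt2 lies at chr6:18030446-18030695 on the minus strand, Wnt4 at chr4:137277385-137277634 and Wnt6 at chr1:74771642-74771891, both on the plus strand. Capitals mark the letters of a GC box (GGGCGG), of a TATA box (TATAAA) or of the TCF/LEF core (CTTTGA or CTTTGT), searched on both strands.
Wnt2: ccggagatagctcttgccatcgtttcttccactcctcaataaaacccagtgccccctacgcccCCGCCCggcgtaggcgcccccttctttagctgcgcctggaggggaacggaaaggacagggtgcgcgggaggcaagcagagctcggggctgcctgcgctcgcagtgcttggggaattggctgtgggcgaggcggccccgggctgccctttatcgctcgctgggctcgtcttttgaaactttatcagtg
Wnt4: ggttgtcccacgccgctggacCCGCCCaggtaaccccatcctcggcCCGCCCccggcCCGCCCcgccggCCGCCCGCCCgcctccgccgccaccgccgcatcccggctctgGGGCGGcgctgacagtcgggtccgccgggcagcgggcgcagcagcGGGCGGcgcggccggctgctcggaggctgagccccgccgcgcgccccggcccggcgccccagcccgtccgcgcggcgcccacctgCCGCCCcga
Wnt6: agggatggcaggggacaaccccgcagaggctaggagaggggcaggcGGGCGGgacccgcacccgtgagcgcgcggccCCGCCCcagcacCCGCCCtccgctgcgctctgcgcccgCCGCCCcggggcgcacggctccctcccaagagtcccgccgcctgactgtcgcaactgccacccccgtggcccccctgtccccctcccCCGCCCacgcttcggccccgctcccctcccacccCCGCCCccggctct
The capitals above are GC boxes in all 3 stretches, 1 in Wnt2, 8 in Wnt4, of which 1 pair overlaps, and 6 in Wnt6, and neither of the other motifs was found in them. RefSeq start sites were in the table for 9 members, Wnt5a being the one without, and 3 start sites were listed for Wnt5b and 2 for Wnt11. Of these 12 stretches 9 held a GC box, against 32.7% of 32851 listed promoters. The TCF/LEF core was in 2 of the 12, 1 of Wnt5b and 1 of Wnt11, against 27.6%, and the TATA box in 1, of Wnt11, against 12.4%. The E-box CANNTG was in 9 of the 12 against 66.2%. GC content was 63.6% for Wnt2, 85.2% for Wnt4 and 79.6% for Wnt6, against a median of 52.4%. These letters describe the windows and are not evidence of binding.

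Replicate arrays lay farther apart for the Wnt ligands than for all genes in MC3T3 and the cushion, and about as close in the valve. The median absolute log2 difference between the 2 arrays of a group over the 10 members was 0.147 for the cushion, 0.0893 for the valve and 0.192 for MC3T3, with the widest gap, 0.60, for Wnt16 in MC3T3. Over all genes the same medians were 0.11, 0.0909 and 0.0792. As a check of the labels, 6 of 7 measured osteoblast markers were called higher in MC3T3 than in either valve stage. All 10 cardiomyocyte markers were called lower there than in the E17.5 valve and 9 than in the E12.5 cushion, and 6 of them (Myh7, Tnni3, Actc1, Myl2, Myl7 and Nppa) stood at the lowest ratio on both MC3T3 arrays. The endothelial genes Tek and Emcn stood at it on replicate 1 and at log2 ratios of -6.49 and -6.35 on replicate 2. The valve arrays also held transcripts of other tissues, and replicate 1 of the E17.5 valve had a mean log2 ratio of 2.54 over 6 hepatocyte markers against 0.16 in replicate 2. Between those same arrays no Wnt ligand differed by more than 0.18 in its gene mean. Single probe sets lay farther apart, such as 1425889_at of Wnt9a (-0.004 and -0.314) and 1448818_at of Wnt5a (-0.076 and -0.354). What part the hepatocyte transcripts had in the Wnt values was not tested.

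**Figure D1:**
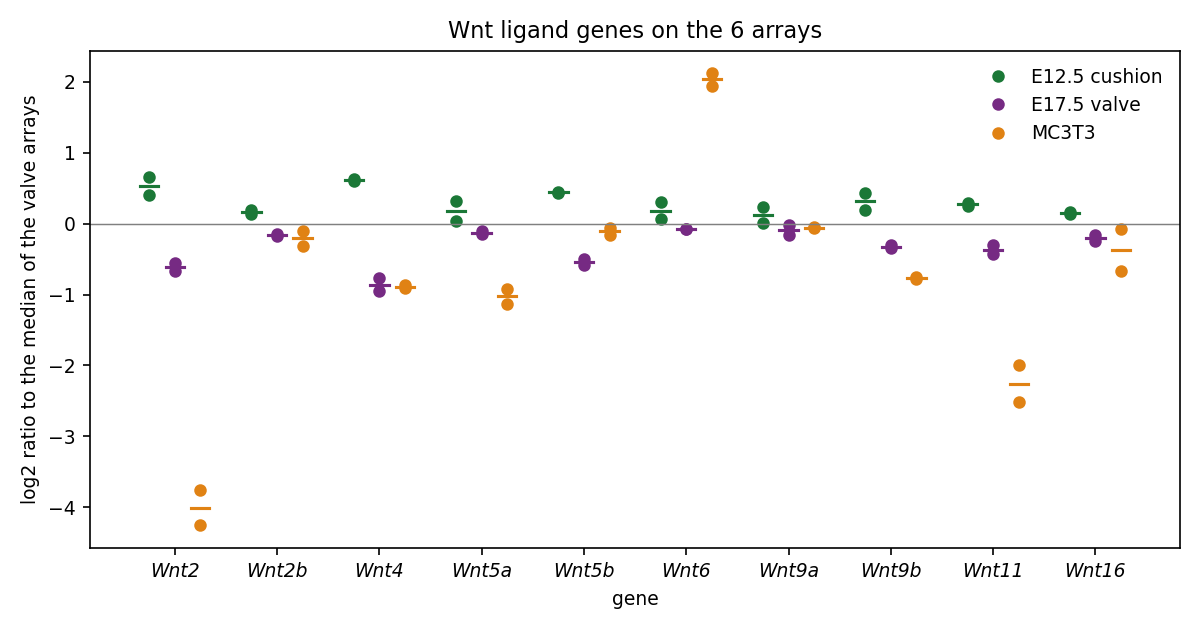
Log2 ratio of each of the 10 Wnt ligand genes to the median of the valve arrays (vertical axis) by gene (horizontal axis). Points are the 2 arrays of each group and bars their mean. Wnt2 and Wnt11 lie far below the valve arrays in MC3T3, at -4.01 and -2.26 on average, and Wnt6 far above at 2.03.

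Between E12.5 and E17.5 Wnt4 and Wnt2 fell. Of the 10 members 2 were called lower at E17.5, against 1.84% of all genes, and none was called higher, against 4.67%. By the adjusted p alone, without the 2-fold requirement, 6 were lower (34.2% of all genes) and none was higher (19.3%). That count was 4 without E17.5 replicate 1, where Wnt2b and Wnt11 did not pass. By gene mean all 10 had both E17.5 arrays below both E12.5 arrays, which was so for 52.8% of all genes, while 25.9% had them above. The median difference over the members was -0.50 and over all genes -0.14. Relative to that median every member was still lower at E17.5. At an unadjusted p below 0.05 none was higher (20.9% of all genes) and 8 were lower (39%). The equal-variance test that the deposited description names was run over all 3 groups at once. Its adjusted p below 0.05, taken with a 2-fold difference between the stages, gave 0 higher and 2 lower. A gene that differs only in MC3T3 can also pass that p, so it does not test the stages alone.

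Wnt4, needed for kidney tubule formation and for the female reproductive tract in the mouse, stood at log2 ratios of 0.61 and 0.63 in the E12.5 cushion, -0.95 and -0.77 in the E17.5 valve, and -0.91 and -0.87 in MC3T3. Only the cushion arrays were high, and the valve and MC3T3 arrays overlapped. From E12.5 to E17.5 Wnt4 fell 2.79-fold (-1.48 ± 0.09, adjusted p = 2.65e-05). Both of its probe sets were called, at -1.35 and -1.61, and the difference ran from -1.39 to -1.57 with each valve array left out and was -1.36 with each array centred on its median. Wnt4 was also 2.85-fold higher in the cushion than in MC3T3 (1.51 ± 0.09, adjusted p = 2.6e-06). Between the E17.5 valve and MC3T3 it differed by 0.03, with a 95% interval of -0.17 to 0.23. There the probe sets had opposite signs, -0.23 and 0.29.

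Wnt2, a ligand of lung mesenchyme and of the inflow region of the developing heart, was measured by 1 probe set. Its log2 ratios were 0.66 and 0.40 in the E12.5 cushion, -0.67 and -0.56 in the E17.5 valve, and -3.76 and -4.25 in MC3T3. The 3 groups did not overlap, with the cushion highest and MC3T3 by far the lowest. Wnt2 fell 2.22-fold between the stages (-1.15 ± 0.16, adjusted p = 0.000924). That difference came to -0.96, under the 2-fold requirement, when only replicate 2 of both stages was used. Against MC3T3 it was 23.2-fold higher in the cushion (4.54 ± 0.16, adjusted p = 2.22e-07) and 10.5-fold higher in the valve (3.39 ± 0.16, adjusted p = 1.08e-06). These were the widest differences of any member in those comparisons, which share the MC3T3 arrays.

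Wnt5b, a close relative of Wnt5a, stood at 0.45 and 0.43 in the cushion, -0.51 and -0.59 in the valve, and -0.06 and -0.16 in MC3T3. The groups did not overlap, and MC3T3 lay between the valve stages. The difference between the stages was -0.99 ± 0.08 (adjusted p = 8.66e-05), so that it passed the adjusted p and missed the 2-fold requirement. It came to -1.03 and was called without E17.5 replicate 1. One of its probe sets, 1439373_x_at, was called at -1.15, and the other, 1422602_a_at, differed by -0.83. The suffix x marks possible matches to transcripts of other genes. Against MC3T3 Wnt5b differed by 0.55 in the cushion and by -0.44 in the valve, both past the adjusted p and short of 2-fold.

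Wnt9b, made by the endocardium in mouse and zebrafish under blood flow, was read differently by its 2 probe sets. By 1443197_at it stood at 0.41 and 0.66 in the cushion, -0.62 and -0.57 in the valve, and -1.39 and -1.45 in MC3T3. By 1451711_at the values were -0.01 and 0.21, 0.01 and -0.13, and -0.12 and -0.10. The first probe set separated all 3 groups, while the second stayed within 0.21 of 0 on all 6 arrays, with overlapping stages. The gene mean differed by -0.64 ± 0.10 between the stages (adjusted p = 0.00108), past the adjusted p and short of 2-fold, and the first probe set alone was called at -1.13. Against MC3T3 the cushion was 2.11-fold higher by the gene mean (1.08 ± 0.10, adjusted p = 2.75e-05), a call lost at 0.96 without E12.5 replicate 2. Of 8 endothelial markers 3 (Npr3, Emcn and Vwf) were called higher and none lower at E17.5, against 4.67% and 1.84% of all genes. The list means were -0.48 to -0.38 at E12.5 and 0.19 to 0.38 at E17.5. Within that list Nfatc1, a transcription factor of endocardium, differed by -0.61 (adjusted p = 0.000761), short of 2-fold and in the direction of Wnt9b, and Cdh5 by 0.07. Their part in the Wnt9b values was not tested.

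Wnt11, a ligand of gastrulation movements and outflow tract growth that acts mostly without beta-catenin, stood at 0.29 and 0.25 in the cushion, -0.42 and -0.31 in the valve, and -2.00 and -2.52 in MC3T3. Its 3 groups did not overlap, and the MC3T3 arrays were the lowest and the farthest apart. Between the stages it differed by -0.64 ± 0.16 (adjusted p = 0.0106), short of 2-fold. It was 5.79-fold higher in the cushion than in MC3T3 (2.53 ± 0.16, adjusted p = 3.81e-06) and 3.72-fold higher in the valve than in MC3T3 (1.90 ± 0.16, adjusted p = 2.25e-05).

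The other 5 members differed little between the stages. Wnt5a and Wnt16 differed by -0.31 and -0.36, Wnt2b by -0.32, Wnt6 by -0.26 and Wnt9a by -0.21. Of these Wnt2b alone passed the adjusted p (0.0214), without reaching 2-fold, and with each array centred it differed by -0.20 and did not pass (adjusted p = 0.116). All 5 lay within 0.22 of the difference of -0.14 that was the median of all genes. With each array centred, that median was -0.02, and 83.5% of all calls between the stages were higher at E17.5 against 71.7% as deposited.

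**Figure D2:**
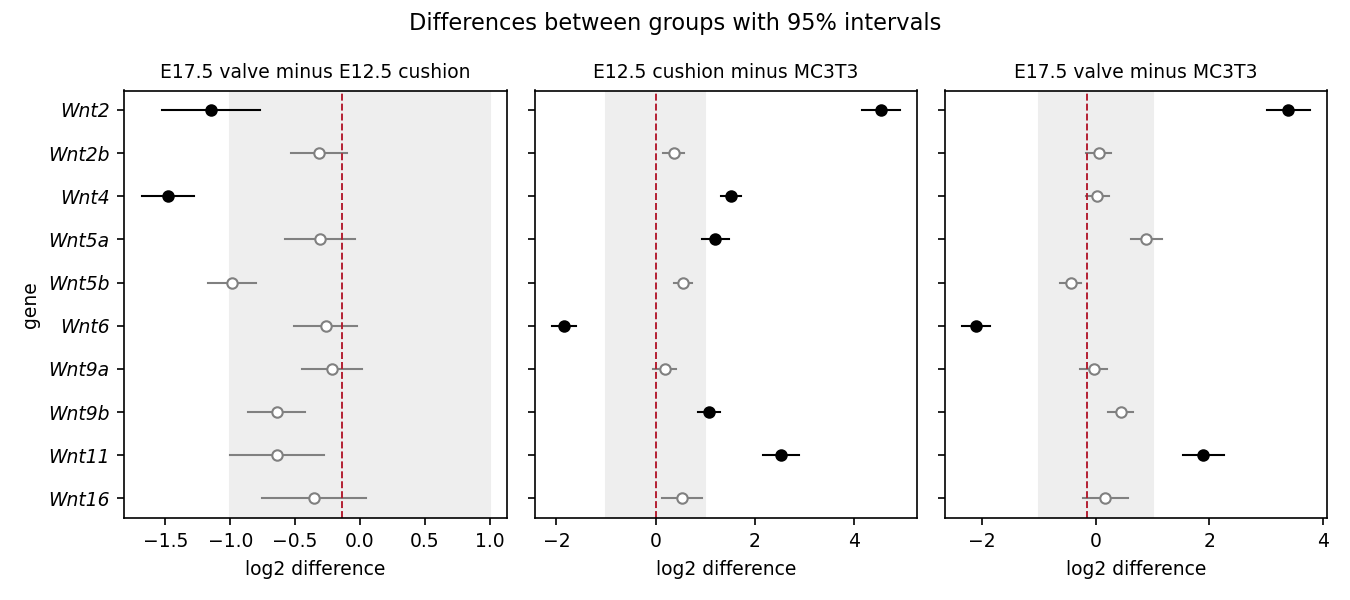
Log2 difference (horizontal axis) of each member (vertical axis) in the 3 comparisons, with 95% intervals from limma. Filled black points were called and open grey points were not, the grey band spans differences under 2-fold, and the dashed line is the median of all genes. All 10 members lie left of that line between the stages, and Wnt6 alone is called left of 0 against MC3T3.

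Against MC3T3 the E12.5 cushion was higher in 5 Wnt ligands and lower in Wnt6. Of the 10 members 5 were called higher in the cushion (Wnt2, Wnt11, Wnt4, Wnt5a and Wnt9b), against 10.2% of all genes, and 1 higher in MC3T3 (Wnt6), against 10.8%. By the adjusted p alone 8 were higher in the cushion (29.4% of all genes) and 1 in MC3T3 (28.3%). Both cushion arrays lay above both MC3T3 arrays for 9 members (40.4% of all genes) and below them for 1 (38.1%). The median difference was 0.81 over the members and 0.01 over all genes. Between the E17.5 valve and MC3T3, 2 members were called higher in the valve (Wnt2 and Wnt11), against 9.78% of all genes, and 1 higher in MC3T3 (Wnt6), against 7.94%. By the adjusted p alone 4 were higher in the valve (21.3% of all genes) and 2 in MC3T3 (38.8%). Both valve arrays lay above both MC3T3 arrays for 4 members (28.1%) and below them for 2 (55.9%), and the other 4 overlapped. The median here was 0.11 over the members and -0.15 over all genes. Markers of the other cell types in the valve moved along with these comparisons: in MC3T3 the mean log2 ratio was -3.88 to -3.87 over 8 endothelial and -3.84 to -3.72 over 8 epicardial and mesothelial markers, against -0.70 to 0.38 for these lists on the valve arrays. All 8 epicardial and 6 of 8 endothelial markers were called lower in MC3T3 than in both stages, the exceptions being Npr3 (cushion) and Nfatc1 (valve). Their part in the Wnt differences was not tested. In tissue, fewer cells of a type and less RNA per cell cannot be told apart.

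Wnt5a, the main ligand of ROR2 in limb, palate and outflow tract growth, was read alike against MC3T3 by 3 of its 4 probe sets. The gene means were 0.04 and 0.32 in the cushion, -0.11 and -0.15 in the valve, and -1.13 and -0.92 in MC3T3. MC3T3 was the lowest group, and the gap between the valve stages was of the size of the gap between the cushion arrays. Wnt5a was 2.3-fold higher in the cushion than in MC3T3 (1.20 ± 0.12, adjusted p = 4.7e-05). In the valve it was higher by 0.89 ± 0.12 (adjusted p = 0.000302), under 2-fold. That second difference was called with each array centred (1.02), with the median over probe sets (1.15) and without MC3T3 replicate 2, at 1.00. By probe set the cushion exceeded MC3T3 by 1.45 to 1.58 in 3 cases and by 0.32 in 1456976_at, which stood within 0.23 of 0 on every array. Between the stages the probe sets differed by -0.48 to -0.10, and none was called. The stages overlapped in 1437673_at, at -0.13 and 0.32 in the cushion and 0.02 and -0.02 in the valve.

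Wnt6, a ligand of embryonic epithelia such as the ureteric bud, went the other way. Its gene means were 0.30 and 0.07 in the cushion, -0.07 and -0.08 in the valve, and 2.12 and 1.95 in MC3T3. MC3T3 stood well above all 4 valve arrays, which lay close together. The MC3T3 level exceeded the cushion 3.6-fold (-1.85 ± 0.11, adjusted p = 2.4e-06, cushion minus MC3T3) and the valve 4.32-fold (-2.11 ± 0.11, adjusted p = 1.25e-06, valve minus MC3T3). Both probe sets were called in both comparisons but with unequal size. Relative to the valve the difference was -2.75 in 1435980_x_at, whose suffix marks possible matches to other transcripts, and -1.47 in 1419708_at. The authors took an MC3T3 ratio above 1.5 as expressed in pre-osteoblasts. Both Wnt6 probe sets passed that value on both MC3T3 arrays, with ratios of 2.44 to 7.33, while the other 16 probe sets reached at most 1.12. The authors' intensity threshold of 100 could not be checked, since ratios hold no intensity.

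In the RefSeq table (GRCm38.p6) the next protein-coding gene after Wnt6 on chromosome 1 is Wnt10a, another ligand, known for its role in teeth and hair, and not among the 10 members. Its log2 ratios were 0.23 and 0.20 in the cushion, -0.23 and -0.27 in the valve, and 4.34 and 4.03 in MC3T3. Like its neighbour it was far higher in MC3T3 than on any valve array. The excess in MC3T3 was 15.7-fold over the cushion (-3.97 ± 0.11) and 21.6-fold over the valve (-4.43 ± 0.11, adjusted p = 3.2e-08). Both pairs of neighbouring Wnt genes on chromosome 11, Wnt9a with Wnt3a and Wnt9b with Wnt3, showed no such excess, and neither Wnt3a nor Wnt3 was called in any comparison. Wnt16 on chromosome 6 lies between Cped1 and Fam3c, a stretch whose human counterpart is known for variants linked to bone density. Wnt16 was not called, while Cped1 and Fam3c were 3.1-fold and 2.53-fold higher in MC3T3 than in the cushion. Erc2, which neighbours Wnt5a on chromosome 14, was 6.42-fold lower in MC3T3 than in the cushion. In that comparison 10.2% of all genes were called higher in the cushion and 10.8% higher in MC3T3. No neighbour of Wnt2, Wnt2b, Wnt4, Wnt5b or Wnt11 was called in any comparison. Nor were Prkag3 beside Wnt6, Cacna2d3 beside Wnt5a and Gosr2 beside Wnt9b.

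Wnt16, a ligand that limits loss of cortical bone in mice, Wnt2b, a relative of Wnt2 that acts with it in lung specification, and Wnt9a, which acts in joints, were called in no comparison. Wnt16 stood at 0.14 and 0.16 in the cushion, -0.16 and -0.25 in the valve, and -0.67 and -0.07 in MC3T3, where its arrays lay farthest apart of all members. Wnt2b stood at 0.13 and 0.19, -0.14 and -0.17, and -0.10 and -0.31. Wnt9a stood at 0.24 and 0.01, -0.02 and -0.16, and -0.06 and -0.05. For all 3 the MC3T3 arrays overlapped the E17.5 valve arrays and lay below both cushion arrays. The 95% intervals of valve minus MC3T3 were -0.23 to 0.57 for Wnt16, -0.16 to 0.26 for Wnt2b and -0.27 to 0.20 for Wnt9a, and all 3 lie inside 2-fold.

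**Figure D3:**
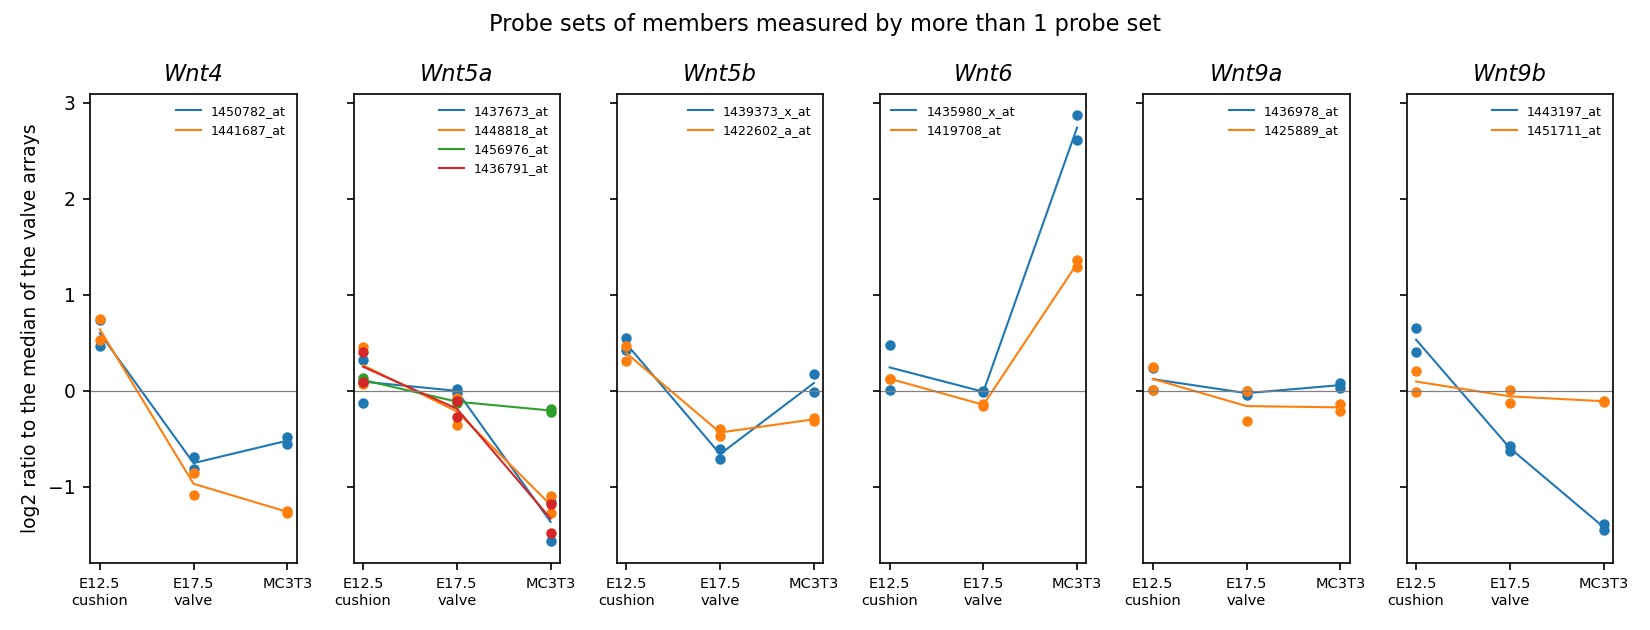
Log2 ratio to the median of the valve arrays (vertical axis) of every probe set of the 6 members with more than 1, in the 3 groups (horizontal axis). Points are arrays, and lines only join the group means of one probe set. The probe sets of Wnt9b and Wnt5a part in MC3T3, where 1 of 2 and 1 of 4 stay near 0, and those of Wnt6 both rise above the valve arrays by unequal amounts.

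For the members called in at least 1 comparison, the genes with the most similar values were found by Euclidean distance over the 6 arrays, as a description with no test. Nearest to Wnt2 were Tspyl3 (distance 0.396) and the potassium channel subunit gene Kcne3 (0.595), and nearest to Wnt4 were Shkbp1 (0.192) and Gpr50 (0.23). Wnt5a lay nearest to Vcan (0.19), the gene of the cushion proteoglycan versican, and Cd300lb (0.22). Wnt6 lay nearest to Trp63 (0.134) and Clcn2 (0.147), Wnt9b to Pi16 (0.145) and Mpzl1 (0.162), and Wnt11 to Myrf (0.305) and Bmyc (0.306). The distances used gene means, and that of Wnt9b averages 2 probe sets with unlike values.

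The 9 remaining Wnt genes were compared in the same way. Between the stages limma called none of them, against 1.84% of all genes lower and 4.67% higher at E17.5. None passed the equal-variance test over 3 groups with a 2-fold stage difference. All 9 differences were negative, with a median of -0.29 against -0.14 over all genes. At an unadjusted p below 0.05 (limma) 6 were lower at E17.5 (39% of all genes) and none was higher (20.9%). Against MC3T3 Wnt10a was called from both stages. Wnt10b, a ligand that raises bone mass in mice, stood at 0.17 and 0.15 in the cushion, -0.16 and -0.28 in the valve, and 1.03 and 0.93 in MC3T3, and was called against the valve (2.3-fold, adjusted p = 8.14e-06). In the cushion comparison it fell short of 2-fold.

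Of 7 genes for Wnt processing and secretion, Trabd2b, a membrane protease that inactivates Wnt proteins, rose 2.34-fold from E12.5 to E17.5. Porcn, the acyltransferase, was 4.16-fold higher in MC3T3 than in the cushion and 6.37-fold higher than in the valve. Its log2 ratios were 2.21 and 2.37 in MC3T3 against -0.58 to 0.31 on the valve arrays, with no overlap. The carrier gene Wls differed by 0.00 between the stages (standard error 0.08) and was 1.78-fold higher in MC3T3, under the 2-fold requirement. By its most variable probe set Wls was called in cushion minus MC3T3, at -1.50 (adjusted p = 1.89e-05, limma).

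Of 16 receptor genes 1 was called between the stages, Fzd2, which fell 2.66-fold (-1.41 ± 0.13). Of all genes 1.84% were called lower and 4.67% higher at E17.5. Against MC3T3 the receptors went both ways. From the cushion 2 of 16 were called higher in the cushion (10.2% of all genes) and 3 higher in MC3T3 (10.8%). From the valve 3 were called higher in the valve (9.78%) and 4 higher in MC3T3 (7.94%). In the cushion comparison Fzd3 (3.41-fold) and Fzd1 (2.56-fold) were higher in the cushion, and Fzd5 (5.6-fold), the co-receptor gene Lrp6 (2.85-fold) and Fzd7 (2.13-fold) were higher in MC3T3. In the valve comparison Fzd3 (2.84-fold), Fzd6 (2.28-fold) and Fzd4 (2.26-fold) were higher in the valve, and 4 genes were higher in MC3T3, led by Fzd5 (4.01-fold), Fzd7 (3.03-fold) and Fzd2 (2.29-fold). The fourth, Ptk7, was chosen after its values were seen, and its call (-1.06) was lost with arrays centred (-0.94) and without E17.5 replicate 1 (-0.95). Ror2, the Wnt5a receptor gene, was not called in any comparison and differed by -0.30 between the stages, -0.38 in cushion minus MC3T3 and -0.68 in valve minus MC3T3.

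Of 12 secreted inhibitor genes Wif1, which encodes a protein that binds Wnt ligands, rose 3.79-fold from E12.5 to E17.5 (1.92 ± 0.19, adjusted p = 0.000197). It stood at -0.93 and -1.20 in the cushion, 1.16 and 0.56 in the valve, and 0.51 and 0.75 in MC3T3, so that only the cushion was low. Dkk3 rose 2.08-fold, but was no longer called when replicate 1 of the cushion (0.99) or of the valve (0.95) was left out. Against MC3T3 the decoy receptor genes Frzb and Sfrp1 were far higher in the cushion (12.7-fold and 8.91-fold) and in the valve (7.71-fold and 7.84-fold). Sfrp2 was higher in MC3T3, 2.22-fold over the cushion and 2.66-fold over the valve. Wif1 and Dkk3 were called 3.24-fold and 2.82-fold higher in MC3T3 than in the cushion.

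Of 9 genes of the R-spondin module, which controls how many Frizzled receptors stay at the surface, Rspo3 fell 2.52-fold between the stages. Rspo1 was 7.89-fold higher in the cushion and 8.16-fold higher in the valve than in MC3T3. Rspo2 went the other way, 4.86-fold and 4.28-fold higher in MC3T3, and so did the receptor ligase gene Rnf43, at 2.17-fold and 3.66-fold. Rspo3 was 2.83-fold higher in the cushion than in MC3T3.

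Of 10 measured response genes of beta-catenin 8 were lower at E17.5 at the adjusted p alone, against 34.2% of all genes. Of the 8, 1 (Lef1) was called, where 1.84% of all genes were called lower. Lef1, a partner of beta-catenin and itself a target, stood at 0.59 and 1.11 in the cushion, -1.13 and -1.28 in the valve, and -0.62 and -0.43 in MC3T3. The cushion arrays were the only high ones, and the fall between the stages was 4.14-fold (-2.05 ± 0.16, adjusted p = 8.05e-05). Axin2, a feedback inhibitor and common readout of the pathway, differed by -0.71 ± 0.08 (adjusted p = 0.000366), short of 2-fold. Ccn4 rose 2.01-fold, and leaving out replicate 1 of the cushion (0.96) or of the valve (0.95) ended that call. The median over the 10 genes was -0.67.

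Against MC3T3 the response genes were split. In the cushion Apcdd1 (5.3-fold), Nkd1 (2.88-fold) and Lef1 (2.59-fold) were higher, and Myc (6.99-fold), Tnfrsf19 (3.87-fold) and Ccn4 (3.14-fold) were higher in MC3T3. In the valve Apcdd1 was higher (2.95-fold), and Tnfrsf19 (6.76-fold), Myc (6.43-fold) and the cyclin gene Ccnd1 (2.45-fold) were higher in MC3T3. Axin2 stood at 0.05 and 0.10 in MC3T3, between the cushion (0.37 and 0.27) and the valve (-0.44 and -0.34).

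Of 11 planar polarity genes, which serve the Wnt branch that orients cells, none was called between the stages by limma. Of all genes 1.84% were called lower and 4.67% higher at E17.5. None passed the equal-variance test over 3 groups with a 2-fold stage difference. At an unadjusted p below 0.05 (limma) there were 6 lower (39% of all genes) and 1 higher (20.9%) at E17.5. The list median was -0.23, against -0.14 over all genes. The cadherin gene Celsr1 was 13.7-fold higher in the cushion and 12.2-fold higher in the valve than in MC3T3. Prickle2 was 2.72-fold and 3-fold higher, and Vangl2 was 2.71-fold higher in the cushion.

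**Figure D4:**
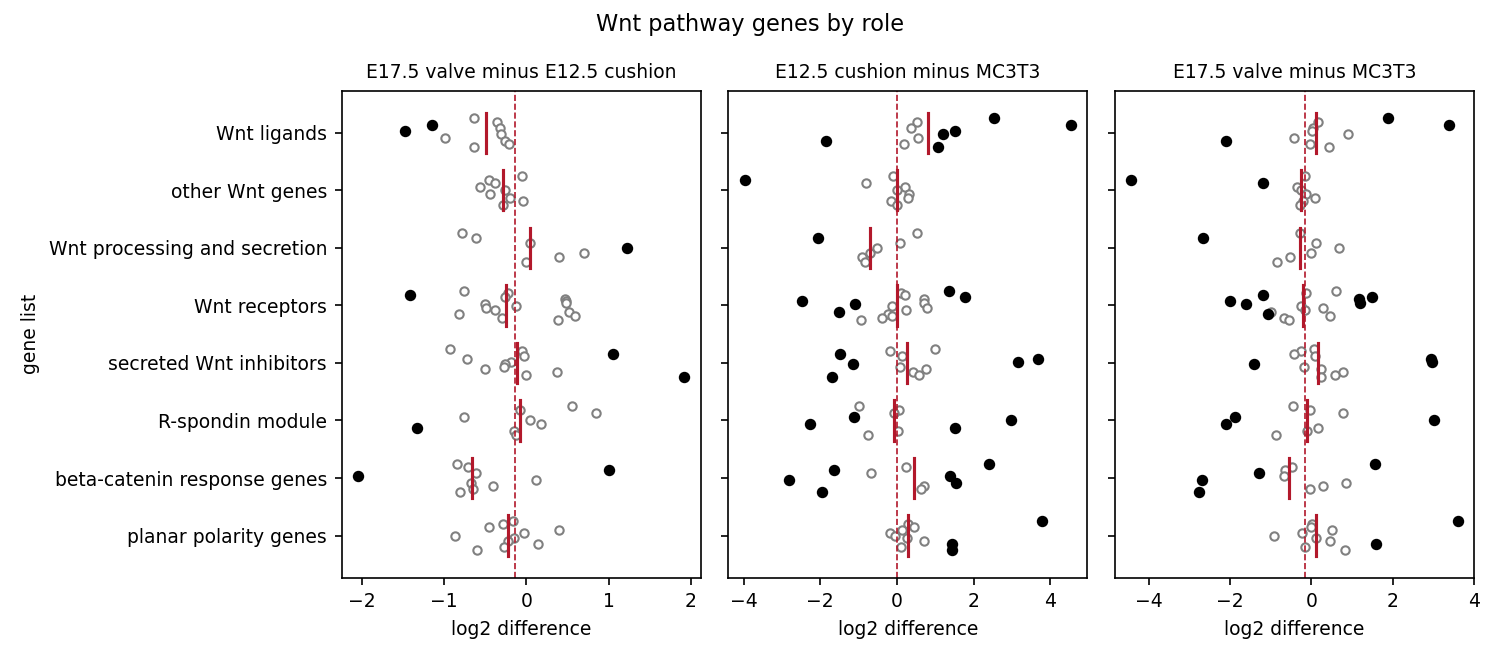
Log2 difference (horizontal axis) of the genes of each Wnt pathway list (vertical axis) in the 3 comparisons. Filled black points were called, open grey points were not, red bars are list medians and the dashed line is the median of all genes. The medians of the Wnt ligands (-0.50) and of the beta-catenin response genes (-0.67) lie left of that line between the stages. So do those of the other Wnt genes (-0.29), the Wnt receptors (-0.24) and the planar polarity genes (-0.23).

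Markers of the cells in the dissected tissue changed between the stages beside the Wnt genes. Of 10 mesenchyme markers 5 were lower at E17.5 (Twist1, Sox9, Msx1, Msx2 and Prrx2) and 2 higher (Postn and Meox2), with list means of -0.02 to 0.06 at E12.5 and -0.45 to -0.39 at E17.5. Higher at E17.5 were 3 of 10 cardiomyocyte, 3 of 8 epicardial and mesothelial, 4 of 6 hepatocyte, 3 of 6 macrophage and 1 of 7 epithelial markers, and 1 of 2 measured neural crest glia markers, while 4 of 5 erythroid markers were lower. Of all genes 4.67% were called higher and 1.84% lower. The epithelial call was Scgb3a2, 19.1-fold higher at E17.5 (adjusted p = 3.71e-06, limma). Sftpc differed by 0.93, short of 2-fold, and 2 of the 7 epithelial differences were negative. The hepatocyte means were -0.24 and -1.41 on the E12.5 arrays and 2.54 and 0.16 on the E17.5 arrays, so replicates lay far apart. The means on the E12.5 and E17.5 arrays were -0.64 to -0.64 and 0.33 to 0.33 for cardiomyocyte markers and 0.71 to 1.26 and -3.22 to -3.08 for erythroid markers. Their part in the differences of Wnt4, Wnt2 and the other members was not tested.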

How the data were processed

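Total RNA of 6 samples was measured on Affymetrix arrays, 2 per group, with groups taken from the sample titles. The deposited values are ratios. The authors used GeneSpring GX 7.3 for RMA and quantile normalization, then scaled every gene by its median, per the experiment description deposited with the table. Over the 4 valve arrays that median was 1 for each of the 45101 probe sets (tolerance 1e-05). The labels name 2 amplification kits without tying them to samples, and which arrays were normalized jointly is also not stated. Quantile normalization sets every array to 1 distribution, and ratios hide absolute levels.

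From these files 64 control, 932 multi-gene and 9160 unnamed probe sets were left out. Probe sets were named from GEO's platform annotation, with symbols updated through RefSeq for 18032 of 18193 genes, and log2 ratios were averaged per gene. Models were fitted with limma 3.58.1 in R 4.3.3 (lmFit, eBayes without a trend, 3 residual and 4.57 prior degrees of freedom), with 3 group means on all 6 arrays and Benjamini-Hochberg adjustment within each of the 3 comparisons. The method was tested on simulated data. No pseudocount or filter on low values was used.

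The members, lists and tests were chosen with earlier results of these data known. By the naming rule the text gives every member, up to 3 called genes each way per pathway list and comparison, Axin2, Lef1, Ror2 and Wls, and the 2 nearest genes of each called member. Genes named as chromosomal neighbours were chosen after their values were seen. The lists held 7 genes not analysed here.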

Additional observations from a re-analysis of the deposited data

How the results depend on the processing

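Counts of called Wnt ligands were recomputed under 20 other settings per comparison. Of the recomputed counts 54 stayed within 1.5 times the reported 2 (between the stages), 6 (cushion and MC3T3) and 3 (valve and MC3T3), and 6 did not. Without a fold threshold 6 members passed between the stages and 6 between valve and MC3T3, and with a 4-fold threshold 0 and 2 passed between the stages and between cushion and MC3T3, since fewer differences reach the stricter fold (limma; the equal-variance test at 2-fold gave 2 and 6). With each gene's most variable probe set, and with every probe set as its own item, 4 were called between the stages, Wnt5b and Wnt9b joining Wnt2 and Wnt4. Leaving out 1 array gave 2 to 3, 5 to 6 and 3 to 4. A lone array is then assumed to vary like the other groups. The replicate numbers are shared between groups but did not pair the arrays (correlations of same-numbered deviations 0.15, 0.06 and 0.02 over all genes), and with a replicate block the counts were 2, 6 and 3. By the adjusted p alone, 6 members were lower at E17.5 as reported, 8 with the replicate block (Wnt5a at 0.0366 and Wnt6 at 0.0433 joining) and 4 to 8 over all settings that kept this p threshold. Using only replicate 2 of both stages was added after seeing the data and gave 2, 6 and 3.

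The direction turned only in small valve minus MC3T3 differences that were called under none of these settings. With 1 array left out, Wnt2b ran from -0.055 (without MC3T3 replicate 2) to 0.156, Wnt4 from -0.061 (without E17.5 replicate 2) to 0.119, Wnt16 from -0.131 (without MC3T3 replicate 1) to 0.468, and Wnt9a from -0.103 to 0.033 (without E17.5 replicate 2). Wnt9a also turned with arrays centred (0.090) and with its most variable probe set (0.013). The cause was not tested. Of all recomputed differences of single members 534 kept direction and call, 18 gained a call, 9 lost one and these 6 turned. Over all genes, calls between the stages numbered 1185, and 2027 by the most variable probe set, 9740 without a fold threshold and 154 with a 4-fold threshold. In the same order, the cushion and MC3T3 counts were 3830, 5338, 10482 and 1243, and those of valve and MC3T3 3225, 4374, 10942 and 1233. Over probe sets 3076, 8241 and 6460 were called. A filter on dim probe sets was not run, since ratios hold no signal over background, and which Wnt genes are expressed at all cannot be read from them.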
